A study of Homo sapiens with 7 samples.

Results

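Small nuclear RNAs are short, stable nuclear transcripts that work inside RNA-protein particles. The major spliceosome uses U1, which pairs with the 5′ splice site, U2, which pairs with the branch point, and the tri-snRNP of U4, U5 and U6. U4 holds U6 in an inactive form, and U5 aligns the exon ends. The minor spliceosome, which removes a rare class of introns, uses U11, U12, U4atac and U6atac with the same U5. U7 acts outside splicing and directs cleavage of replication-dependent histone pre-mRNA. Most of these genes are read by RNA polymerase II and their transcripts are released by the Integrator complex, while U6 and U6atac are made by RNA polymerase III.

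The genes were chosen by symbol: those that begin with RNU or RNVU and a digit, do not end in P, and lie on chromosomes 1 to 22 or X. There were 45 such genes among the 63655 in the deposited table. By class they were 24 U1 genes, 2 U4, 5 U5, 6 U6 and 1 each for U7, U11, U12, U4atac and U6atac, with no U2 gene, since the U2 symbols on these chromosomes all ended in P. The other 3, RNU105B, RNU105C and RNU3P3, are not spliceosomal by annotation or symbol: GENCODE 29 lists the RNU105 pair as small nucleolar RNAs, and U3 is a nucleolar RNA.

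RNA was measured in bulk in HEK293 cells, a human line first grown from embryonic kidney, with CNBP bearing a FLAG-HA tag. CNBP is a nucleic acid-binding protein with zinc knuckles that favours G-rich sites. The labels give 4 CNBP knockdown samples and 3 control knockdown samples, all of this tagged line; they do not say whether it is 1 clone. The knockdown samples carry a number in 2 levels, 2 sets of 2, and the controls a single number; the labels do not say what the levels stand for, so the 4 may not be independent of each other. The table gives 1 pooled FPKM (fragments scaled by transcript length and by the number of mapped fragments) for each of 2 conditions, headed siRNA and OE. The siRNA heading was read as CNBP knockdown, and OE is not explained by the labels. CNBP itself was listed at 45.5 FPKM in siRNA and 579.8 FPKM in OE, and was called lower in siRNA (q = 0.00791, the authors' deposited table). No value per sample was given, so no SD or n can stand beside any value, and the depth per sample is unknown. All 6 HEK293 marker genes examined were above 0, from NEFM at 0.277 FPKM in siRNA and 0.262 FPKM in OE up to VIM at 413 FPKM in siRNA and 398 FPKM in OE. NEFL was called, at 64.7 FPKM in siRNA and 35.9 FPKM in OE. Of 9 blood, liver, fibroblast and keratinocyte markers, 6 were also above 0 in both conditions. None of the 9 exceeded 4.79 FPKM in siRNA or 6.60 FPKM in OE. The fibroblast gene COL1A1, which held both of these values, stood above the HEK293 markers PAX2, LHX1 and NEFM in both conditions.

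A gene was called where the table's status column marked it as tested and the authors' q-value was under 0.05. Of the 45 genes, 17 were tested, 21 were not tested and 7 were marked as having too much data. The last 7 and another 17 were listed at 0 in both conditions. The labels do not say that samples came from separate cultures, so the q-values may measure technical spread.

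The called genes were all U5 copies, and the copies share stretches of sequence. In GENCODE 29 the U5 transcripts were 116 to 120 bases long. RNU5A-1 and RNU5B-1 were the most alike pair, at 93.97% identity with 7 differing positions. The least alike pair, RNU5D-1 and RNU5F-1, were 78.99% identical. Every pair shared an unbroken run of at least 38 bases, and RNU5D-1 and RNU5E-1 shared one of 65 bases. Reads from such runs could be divided among the copies, so the value of any single U5 gene is uncertain.

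In U5, the class that gives the major and minor spliceosome their shared exon-aligning RNA, 3 of 5 genes rose in siRNA by 1.62- to 1.81-fold and the other 2 did not pass the test; of all 24822 tested genes in the table, 0.572% were called higher. RNU5A-1 was at 39409.9 FPKM in siRNA and 23153 FPKM in OE, a 1.702-fold higher value (0.77 on the log2(FPKM + 1) scale; q = 0.00791 in the authors' deposited table). RNU5B-1 was at 24179 FPKM in siRNA and 14953 FPKM in OE, 1.62-fold higher (q = 0.00791 in the authors' deposited table). RNU5F-1, the least abundant copy, was at 3729 FPKM in siRNA and 2064 FPKM in OE, 1.81-fold higher (q = 0.0388 in the authors' deposited table). All 3 stood higher in siRNA, although their levels differed: RNU5A-1 was at 10.6 times RNU5F-1 in siRNA and 11.2 times in OE.

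RNU5E-1 was at 25319 FPKM in siRNA and 20619.6 FPKM in OE, a 1.23-fold difference with q = 0.583 in the authors' deposited table. RNU5D-1 was at 7973 FPKM in siRNA and 7395 FPKM in OE, 1.08-fold apart (q = 0.999, the authors' deposited table). These 2 uncalled copies also had the higher value in siRNA. In a bulk sample, more RNA per cell and more cells carrying it cannot be told apart. The authors' table holds no test of whether one copy's change differs from another's.

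Because the copies share sequence, their sum is less exposed to how reads were divided. The 5 U5 genes summed to 100610.0 FPKM in siRNA and 68184 FPKM in OE, 1.48-fold higher in siRNA and 0.56 on the log2 scale. The sum has no test of its own. The 3 called genes made up 83.7% of that difference, a share raised by picking them for their calls. They also held 40170 FPKM of the 68184 FPKM in OE. RNU5A-1 held 39.2% of the U5 sum in siRNA and 33.96% in OE. RNU5E-1 held 25.2% in siRNA and 30.2% in OE, RNU5B-1 24.0% in siRNA and 21.9% in OE. RNU5D-1 held 7.92% in siRNA and 10.8% in OE. RNU5F-1 held the smallest part, at 3.71% in siRNA and 3.03% in OE.

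**Figure D1:**
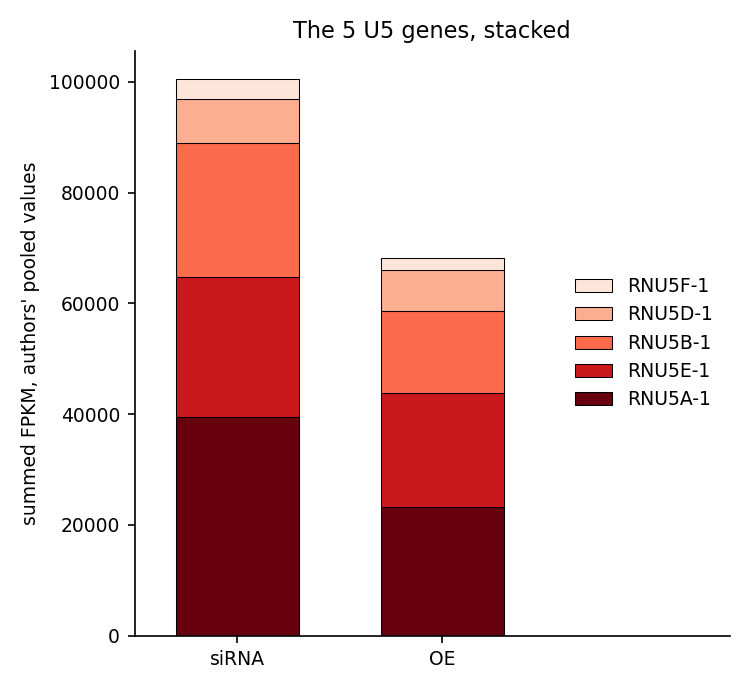
Summed FPKM (vertical axis, from 0) of the 5 U5 genes in the siRNA and OE conditions, with 1 segment per gene; each bar is the authors' pooled value and has no error. The siRNA bar reaches 100610.0 FPKM and the OE bar 68184 FPKM, and RNU5A-1 makes up 39.2% of the siRNA bar and 33.96% of the OE bar.

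Where a called gene shares its listed locus with other genes, none of those was called. RNU5A-1 (ENSG00000199568, chromosome 15) is listed with a locus of 65526798 to 65592956 in hg19, a bundle with the protein-coding gene PARP16 and the small nucleolar RNA SNORA24. PARP16 was at 6.85 FPKM in siRNA and 8.72 FPKM in OE, and SNORA24 at 83.1 FPKM in siRNA and 91.6 FPKM in OE. RNU5B-1 (ENSG00000200156, chromosome 15, 65597015 to 65597130) has a locus of its own, equal in length to its transcript. RNU5F-1 (ENSG00000199377, chromosome 1, 45140364 to 45191263) shares its locus with C1orf228, at 0.551 FPKM in siRNA and 1.34 FPKM in OE. RNU5D-1 (chromosome 1, 45196727 to 45196842) and RNU5E-1 (chromosome 1, 11968209 to 11968328) also have loci of their own.

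U4, the RNA that holds U6 before activation, had the highest listed sum of FPKM among the classes chosen by the symbol rule. It was close to equal in the conditions. The rule leaves out the U2 entries ending in P. The rank does not cover U1 or U6 either. The main U1 genes had too much data and were listed at 0, and no U6 gene was tested. RNU4-2 (ENSG00000202538, chromosome 12, 120729566 to 120729706) was at 203914 FPKM in siRNA and 210259 FPKM in OE. RNU4-1 (ENSG00000200795, chromosome 12, 120730900 to 120731040) was at 60859.8 FPKM in siRNA and 63009.8 FPKM in OE. Neither was called, with q = 0.999 for both in the authors' deposited table. Both values were slightly lower in siRNA, by 0.04 and 0.05 on the log2 scale.

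The pair is printed because it differs at so few bases. The sequences are those of GENCODE 29, read 5′ to 3′. Capitals mark the 4 positions that differ, between base 37 and base 113, and the longest shared run is 50 bases.
RNU4-2: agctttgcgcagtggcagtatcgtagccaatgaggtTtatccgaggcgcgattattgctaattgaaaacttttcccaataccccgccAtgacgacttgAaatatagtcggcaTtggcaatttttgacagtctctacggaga
RNU4-1: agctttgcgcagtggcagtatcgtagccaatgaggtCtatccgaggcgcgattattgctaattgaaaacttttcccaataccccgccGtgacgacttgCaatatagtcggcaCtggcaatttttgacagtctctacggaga

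The ratio of RNU4-2 to RNU4-1 was 3.35 in siRNA and 3.34 in OE. A ratio of genes within a condition does not depend on how the conditions were scaled. The summed U4 level was 2.63 times the summed U5 level in siRNA and 4.01 times in OE. Such ratios of FPKM are not molar ratios, because capture of each short RNA in the library was not measured.

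The 4 RNAs of the minor spliceosome all had a higher value in siRNA, and none was called. U11, which recognises the minor 5′ splice site, was at 2118 FPKM in siRNA and 1466 FPKM in OE. That is a 1.44-fold difference with p = 0.0183 and q = 0.284 in the authors' deposited table. U12, which pairs with the minor branch point, was at 1791 FPKM in siRNA and 1404 FPKM in OE, 1.28-fold apart (q = 0.586, the authors' deposited table). In GENCODE 29 the gene ID of the RNU12 row bears another symbol, Z93241.1, and that of the RNU11 row bears AL360012.1. The RNU12 row covers 664 bp (chromosome 22, 43011250 to 43011913), while the U12 RNA in GENCODE 29 has 150 bases. Its FPKM is therefore per kilobase of a longer feature and is not comparable in level with U11.

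U6atac, the minor counterpart of U6, was at 1591 FPKM in siRNA and 1399 FPKM in OE, 1.14-fold apart with q = 0.999 in the authors' deposited table. U4atac, the partner of U6atac, was at 366 FPKM in siRNA and 192 FPKM in OE. This was 1.91-fold, a larger ratio than that of any called U5 gene, yet p was 0.547 and q was 0.999 in the authors' deposited table. RNU4ATAC lies in a listed locus of 311812 bp (chromosome 2, 122095352 to 122407163) with CLASP1, a microtubule-binding protein gene at 34.7 FPKM in siRNA and 31.95 FPKM in OE. Whether reads of CLASP1 introns entered the RNU4ATAC value was not tested. The level of U4atac was 0.230 of U6atac in siRNA and 0.137 in OE.

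**Figure D2:**
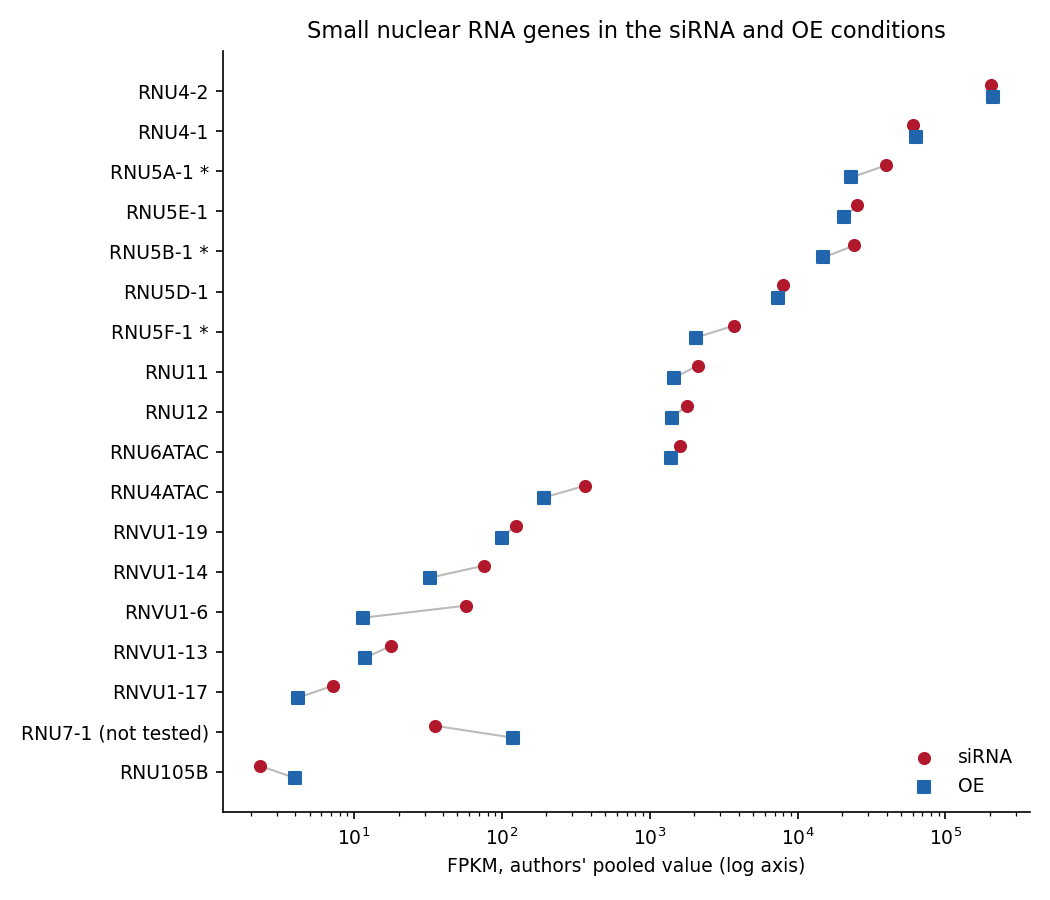
FPKM (horizontal log axis) of the 17 tested genes and RNU7-1, with the siRNA value as a circle above the OE value as a square, joined by a line; an asterisk marks a call. The 14 genes with the circle to the right of the square include all 5 U5 genes, and the 2 U4 genes at the top lie almost level.

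U1, the RNA that finds the 5′ splice site, could not be read from its main genes. RNU1-1 to RNU1-4 and the variants RNVU1-7, RNVU1-9 and RNVU1-18 were the 7 genes with too much data, and all were listed at 0 in both conditions. The 6 of them with a sequence were at least 99.4% identical to each other, and 10 of their 15 pairs were the same base for base. The table holds 49 genes with this status, so a listed 0 here is not a low level. Another 10 U1 genes were listed at 0 without a test.

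Only minor U1 variant genes carried values, and none of the 5 tested was called, although all 5 had the higher value in siRNA. RNVU1-19 was at 124.4 FPKM in siRNA and 99.5 FPKM in OE, with q = 0.895 in the authors' deposited table. RNVU1-14 was at 75.5 FPKM in siRNA and 32.6 FPKM in OE, 2.32-fold apart, with p = 0.0027 and q = 0.107 in the authors' deposited table. RNVU1-6 (ENSG00000201558, chromosome 1, 145382757 to 145382920) was at 56.9 FPKM in siRNA and 11.5 FPKM in OE, 4.95-fold apart. Its p was 0.0115 and its q 0.224 in the authors' deposited table, so this ratio, above that of any other tested gene of the set, did not pass the test.

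RNVU1-13 was at 17.8 FPKM in siRNA and 11.9 FPKM in OE, and RNVU1-17 at 7.21 FPKM in siRNA and 4.15 FPKM in OE. Neither was called, with q-values of 0.964 and 0.999 in the authors' deposited table. RNVU1-15 and RNVU1-20 were listed at 1.72 and 1.37 FPKM in siRNA and at 0 in OE, without a test. The U1 genes with a value, tested or not, stood at a small part of the U5 level. They summed to 285 FPKM in siRNA and 159.7 FPKM in OE.

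RNVU1-6 is shown beside RNU1-1 to show how near a minor variant is to the main gene. Capitals mark the 15 positions that differ, between base 17 and base 148; the 5′ end that pairs with the splice site is the same in both.
RNVU1-6: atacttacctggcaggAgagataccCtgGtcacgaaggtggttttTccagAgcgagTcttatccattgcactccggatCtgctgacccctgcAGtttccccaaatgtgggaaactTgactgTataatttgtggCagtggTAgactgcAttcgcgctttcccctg
RNU1-1: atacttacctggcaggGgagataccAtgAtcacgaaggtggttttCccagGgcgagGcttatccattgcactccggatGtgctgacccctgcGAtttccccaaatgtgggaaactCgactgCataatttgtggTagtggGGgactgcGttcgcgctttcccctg

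The 3 tested variants with a sequence were 90.9% to 93.3% identical to RNU1-1, and shared runs of 21 to 41 bases with it at most. Reads of the main U1 genes, whose level is not listed, could be placed on a variant, and their part in the variants' values was not tested. The letters CTTACCT, which pair with the 5′ splice site, were found in 12 of the 15 U1 genes with a sequence. They were found in 0.707% of the first 164 bases of 184925 distinct transcript starts on the same strand and in 1.14% on either strand.

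U6, the RNA at the catalytic core, could not be read either. RNU6-1, RNU6-2, RNU6-7, RNU6-8 and RNU6-9 were listed at 0 in both conditions without a test. These copies of 107 bases are 99.1% to 100% identical to each other, and all 6 U6 sequences hold ACAGAGA, the letters that pair with the 5′ splice site. Those letters were found in 1.38% of the first 116 bases of transcript starts on the same strand and in 2.57% on either strand. RNU6V alone had a value, 2.34 FPKM in siRNA and listed at 0 in OE. Since every cell uses U6, these entries are given only as listed.

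U2 was represented only by genes named as pseudogenes, which lie outside the set and were looked up because the class would otherwise be missing. RNU2-59P was at 249034 FPKM in siRNA and 198455 FPKM in OE, 1.25-fold apart, with q = 0.973 in the authors' deposited table. RNU2-2P, in a listed locus on chromosome 11 (62599706 to 62609281), was at 163863 FPKM in siRNA and 126121 FPKM in OE and had too little data for a test. All 69 U2 entries summed to 432648 FPKM in siRNA and 340767 FPKM in OE, a ratio of 1.27. None of the 23 tested was called in either direction, where 0.572% of all tested genes were called higher and 0.782% lower. The smallest p among those with a mean of at least 1000 FPKM was 0.00385, for RNU2-61P, with q = 0.131 in the authors' deposited table. Which U2 gene the reads came from cannot be told from the table.

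U7, the histone processing RNA, had 1 gene, RNU7-1 (ENSG00000238923), which was named after its values were seen. It was listed at 35.3 FPKM in siRNA and 119.7 FPKM in OE, a lower value in siRNA, and it was not tested. The mature RNA is printed because its length sets what its FPKM can show. Capitals mark TCTTT, part of the stretch that pairs with histone pre-mRNA.
RNU7-1: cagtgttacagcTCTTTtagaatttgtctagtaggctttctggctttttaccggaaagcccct

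With 63 bases, RNU7-1 is one of the shortest features in the table, and a small amount of signal gives such a feature a large FPKM. Among the genes of 58 to 68 bases, 85 of 394 were above 0 in siRNA, with a lowest value of 25.1 FPKM and a first quartile of 108 FPKM. In OE 60 were above 0, with a lowest value of 73.2 FPKM and a first quartile of 176 FPKM. RNU7-1 lay below the first quartile in both conditions, near the lowest values listed for genes of its length, so no difference can be read from it. Its locus (chromosome 12, 7052141 to 7055166) is shared with C12orf57, at 117 FPKM in siRNA and 123 FPKM in OE. The letters TCTTT are common, in 7.16% of the first 63 bases of transcript starts on the same strand and 14.9% on either strand.

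The same comparison sets the other classes apart. Genes of 111 to 125 bases, near the length of U5, had medians of 11.3 FPKM in siRNA and 15.4 FPKM in OE where above 0, below every U5 gene of the set, the lowest of which was RNU5F-1. Genes of 159 to 169 bases, near the length of U1, had medians of 4.13 FPKM in siRNA and 5.32 FPKM in OE. RNVU1-17 was near that level, at 7.21 FPKM in siRNA and 4.15 FPKM in OE, while RNVU1-14 and RNVU1-6 stood above it in both conditions.

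**Figure D3:**
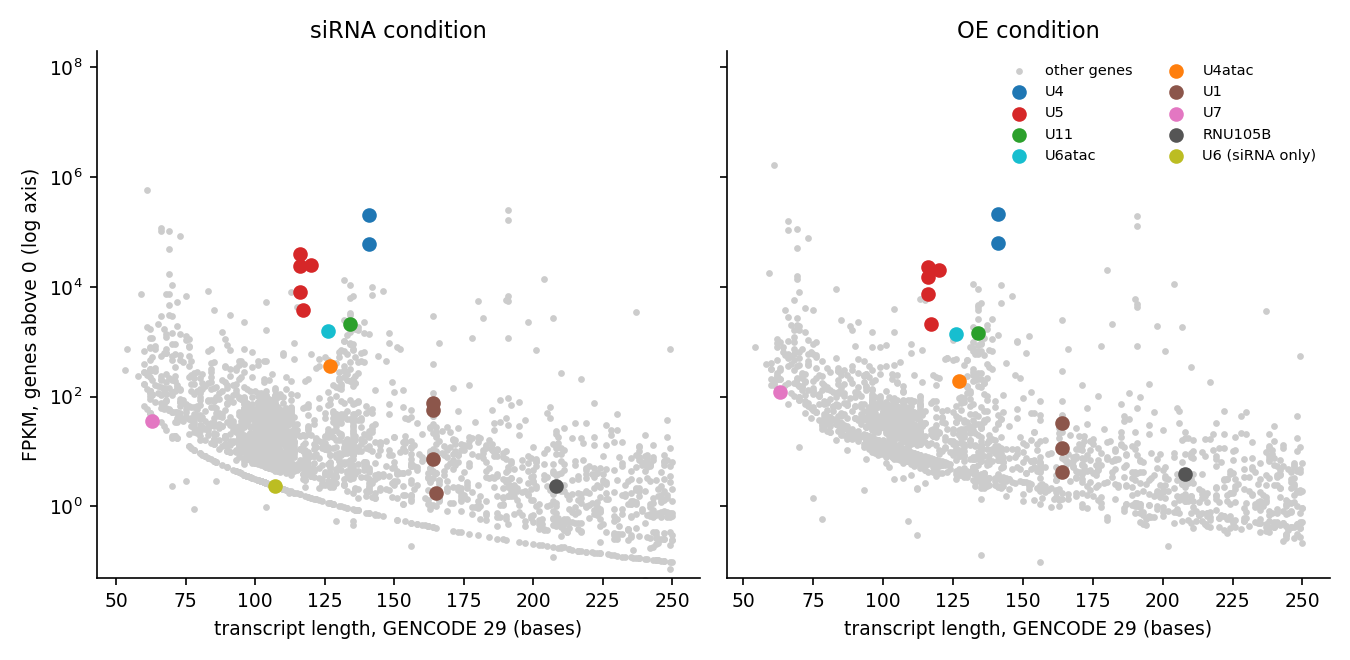
FPKM (vertical log axis) against transcript length in GENCODE 29 (horizontal axis, bases) for genes above 0 in the siRNA condition (left) and the OE condition (right), with small nuclear RNA classes in colour and other short genes in grey. The grey points have a lower edge that falls with length; RNU7-1, at 35.3 FPKM in siRNA and 119.7 FPKM in OE, lies near it, and U4 and U5 lie far above it. RNU6V, at 0 in OE, is drawn in siRNA only. RNU12, and U1 genes without a sequence, are not drawn.

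Over the set, 3 of the 17 tested genes were called higher, and 0.572% of all 24822 tested genes were. None was called lower by the authors' Cuffdiff test, against 0.782% of all tested genes. At an unadjusted p under 0.05 in the authors' deposited table, 6 were higher and 0 lower, where 4.51% of all tested genes were higher and 6.41% lower. The 6 were the 3 called U5 genes, RNU11, RNVU1-14 and RNVU1-6. A gene is tested only if it has enough signal and not too much data, so the 17 do not stand for all 45.

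A higher value in siRNA was listed for 14 of the 17, against 50.3% of the 21820 tested genes whose mean reached 1 FPKM. Their median difference was 0.53 on the log2(FPKM + 1) scale, siRNA minus OE, and that of all those tested genes 0.0027. Short RNAs as a whole also had medians away from 0, in a direction that depended on how they were chosen. The 1164 tested genes with transcripts of at most 200 bases and a mean that reached 1 FPKM had a median of 0.20. The 401 with a locus of at most 300 bp, a group without genes that lie inside longer loci, had a median of -0.33. Box C/D small nucleolar RNAs had a median of 0.12 over 97 genes, and box H/ACA and Cajal body RNAs 0.30 over 175 genes.

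Calls among short genes were few. Of the 1166 tested genes with transcripts of at most 200 bases, 4 were called higher (0.343%) and 3 lower (0.257%). The 3 lower were MIR3687, MIR3648 and a Y_RNA gene listed at 0 in siRNA and 36.9 FPKM in OE. MIR3687 was at 593204 FPKM in siRNA and 1687870 FPKM in OE, and MIR3648 at 5587 FPKM in siRNA and 20618 FPKM in OE. All genes of the table summed to 3227010 FPKM in siRNA and 4486720 FPKM in OE. All 4 higher calls were U5 sequences: RNU5A-1, RNU5B-1, RNU5F-1 and RNU5E-4P, a copy named as a pseudogene and so outside the set. RNU5E-4P was at 592 FPKM in siRNA and 215 FPKM in OE with q = 0.0177 in the authors' deposited table. It was the only call among the 6 tested U5 copies ending in P. Of the others, RNU5B-2P (-1.23) and RNU5A-3P (-1.77 on the log2(FPKM + 1) scale) were lower in siRNA, and RNU5A-8P, RNU5A-4P and RNU5F-3P higher. With a locus of at most 300 bp, 0.744% of 403 genes were called higher and 0.993% lower.

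**Figure D4:**
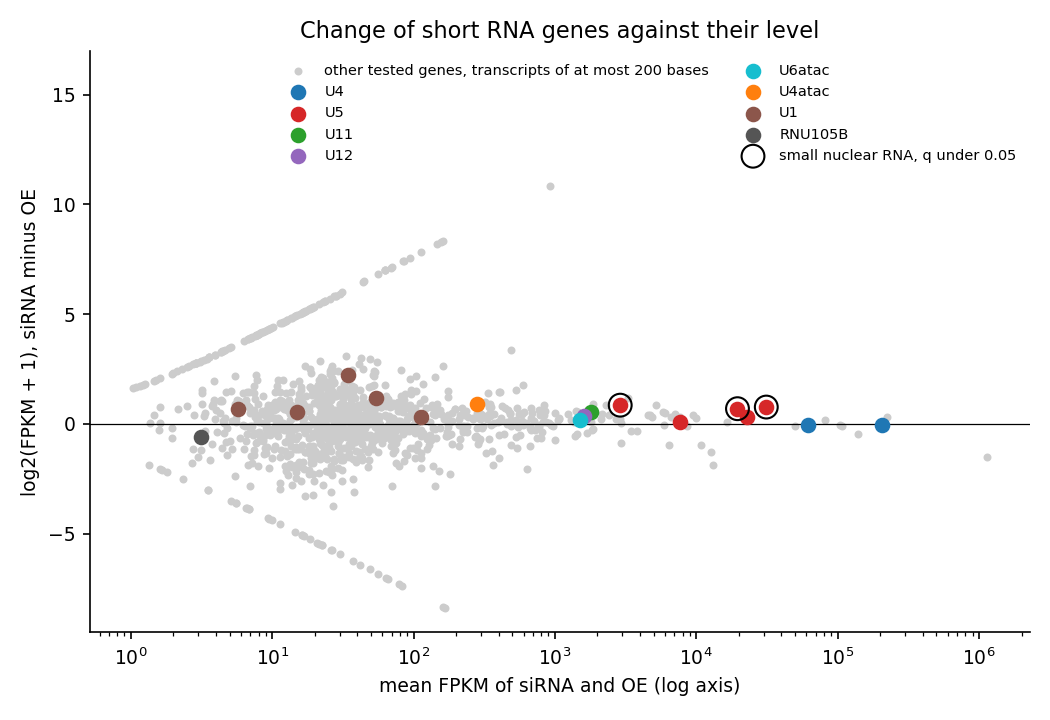
Difference on the log2(FPKM + 1) scale, siRNA minus OE (vertical axis), against mean FPKM (horizontal log axis) for tested genes with transcripts of at most 200 bases, grey, and for the 17 tested genes of the set, coloured by class and ringed where called. The 3 ringed U5 genes lie between 0.69 and 0.85; the slanting grey lines are genes listed at 0 in 1 condition.

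RNU105B, a small nucleolar RNA by annotation inside the PLCB1 locus, was at 2.31 FPKM in siRNA and 3.96 FPKM in OE, not called. RNU105C and RNU3P3 were listed at 0 in both conditions.

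The proteins that assemble and work with these RNAs were compared through a list of 108 genes, of which 107 were in the table and 106 were tested. Of these 1 rose and 1 fell, where 0.572% of all tested genes were called higher and 0.782% lower. NCBP2, the small subunit of the nuclear cap-binding complex that takes part in export of new small nuclear RNA, was at 46.99 FPKM in siRNA and 29.2 FPKM in OE, 1.61-fold higher. Its q was 0.0418 in the authors' deposited table. INTS3, a subunit of the Integrator complex that releases small nuclear RNA transcripts, was at 14.99 FPKM in siRNA and 25.7 FPKM in OE. It was 1.72-fold lower in siRNA (q = 0.0177, the authors' deposited table).

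The subgroups held no other call. The median difference of the 106 genes was 0.13 on the log2 scale, and 68 had a higher value in siRNA. The 21820 tested genes of the whole table whose mean reached 1 FPKM had a median of 0.0027, and 50.3% were higher in siRNA. Among the Sm and LSm ring proteins 9 of 13 tested genes were higher in siRNA. SNRPD2 was at 718 FPKM in siRNA and 628 FPKM in OE, SNRPB at 259 FPKM in siRNA and 279 FPKM in OE. In U1 proteins, SNRPA was at 225 FPKM in siRNA and 149.9 FPKM in OE, SNRNP70 at 140.1 FPKM in siRNA and 139 FPKM in OE. In the U2 group, SF3B3 was at 416 FPKM in siRNA and 445 FPKM in OE, and SF3B1, which grips the branch point, at 263 FPKM in siRNA and 238 FPKM in OE.

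Among the proteins of U5 and the tri-snRNP, none of 12 was called by the authors' Cuffdiff test. Of all tested genes, 0.572% were called higher and 0.782% lower. The median difference of the 12 was 0.08. PRPF8, the protein at the heart of U5, was at 173 FPKM in siRNA and 159 FPKM in OE. EFTUD2, the U5 GTPase, was at 121 FPKM in siRNA and 106 FPKM in OE. SNRNP40, named for its p, was at 108 FPKM in siRNA and 75.5 FPKM in OE. It alone in the group had an unadjusted p under 0.05 (0.00695, q = 0.175 in the authors' deposited table). At that threshold 4.51% of all tested genes were higher and 6.41% lower. In the U4/U6 group, NHP2L1, which binds a turn in U4, was at 166 FPKM in siRNA and 137 FPKM in OE, and SART3 at 72.1 FPKM in siRNA and 74.2 FPKM in OE.

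Minor spliceosome proteins had a median difference of 0.0050, with ZCRB1 at 41.8 FPKM in siRNA and 46.5 FPKM in OE and RNPC3 at 25.9 FPKM in siRNA and 18.2 FPKM in OE. For U7 and histone processing, SYMPK was at 57.4 FPKM in siRNA and 73.6 FPKM in OE, and SLBP, the histone stem-loop binding protein, at 61.0 FPKM in siRNA and 58.7 FPKM in OE. In the assembly group, PRMT5, which methylates Sm proteins, was at 201 FPKM in siRNA and 138 FPKM in OE, and STRAP at 152 FPKM in siRNA and 126 FPKM in OE. SMN1 and SMN2, near-identical genes that can share reads, were not called. SMN1 was at 4.02 FPKM in siRNA and 3.16 FPKM in OE, and SMN2 at 3.02 FPKM in siRNA and 1.62 FPKM in OE.

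In the export and trimming group, PHAX, the export adaptor that works with the cap-binding complex, was at 63.4 FPKM in siRNA and 40.7 FPKM in OE with q = 0.225 in the authors' deposited table. LARP7 was at 47.98 FPKM in siRNA and 34.8 FPKM in OE. Among transcription and cleavage genes, INTS10 was at 267 FPKM in siRNA and 184 FPKM in OE with q = 0.383 in the authors' deposited table. CPSF3L, the Integrator subunit that cuts the transcript, was at 92.1 FPKM in siRNA and 104 FPKM in OE.

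**Figure D5:**
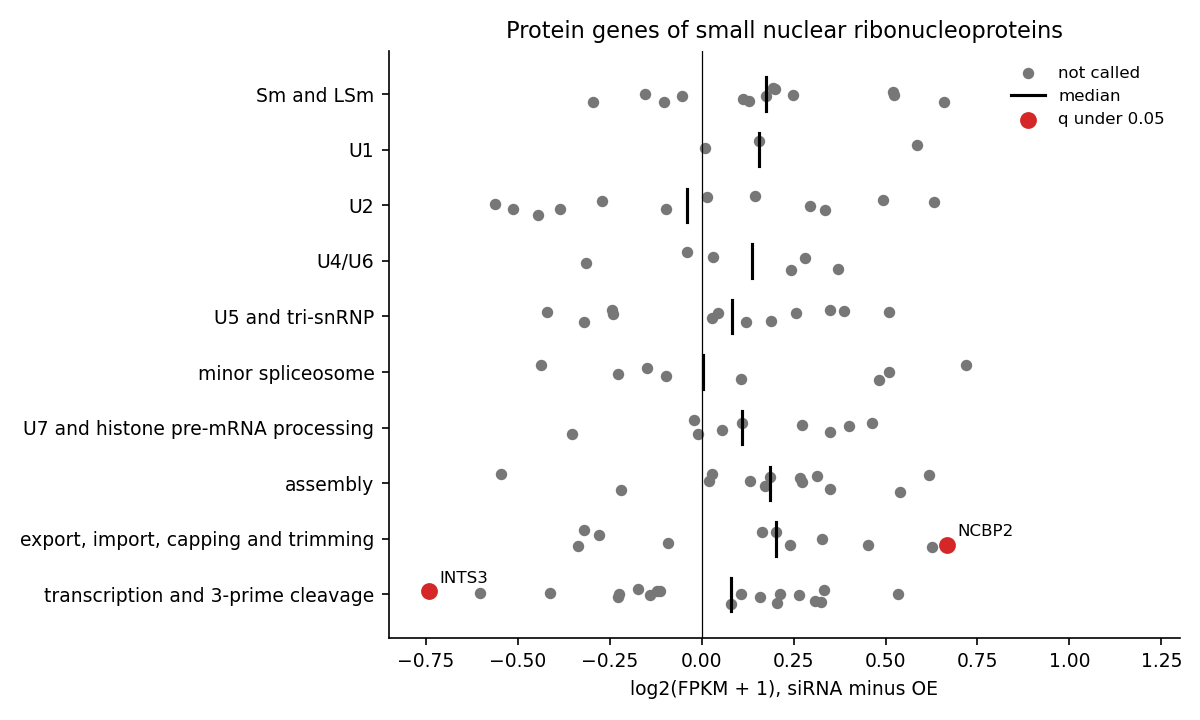
Difference on the log2(FPKM + 1) scale, siRNA minus OE (horizontal axis), for the 106 tested protein genes in 10 subgroups, with 1 point per gene and a bar at each subgroup's median; points are spread vertically only to be seen. Red points mark the 2 calls, NCBP2 at 0.67 and INTS3 at -0.74, and the subgroup medians lie between -0.04 and 0.20.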

How the data were processed

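The authors deposited 1 Cuffdiff gene table with an FPKM for each of 2 conditions, pooled by them over replicates, and with a p-value and q-value per gene from their comparison. TopHat, Cufflinks, Cuffdiff and the hg19 build are named in the submitters' processing notes; no version or annotation release is given there. Libraries were directional, per the labels' protocols; whether counting used strand is not given.

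Locus starts, counted from 0 in the file, were printed after adding 1. For 21 of 22 genes with a locus of their own and a transcript, locus and transcript lengths were equal; RNU12 was the exception. Folds were recomputed as siRNA over OE, with a pseudocount of 1 where log2(FPKM + 1) is named, which understates changes of low genes. Sequences came from GENCODE 29, of a later build, for 35 of 45 genes: 33 by gene ID and 2 (RNU11, RNU12) by symbol. By gene ID, 7 genes bear another symbol there, 5 of them RNVU1 genes. Identity was taken from global alignments (match 1, mismatch -1, gap opening -2, extension -0.5). Motifs were searched on both strands. Some sequence results are not reported here. The group of transcripts of at most 200 bases and the groups of like length were added after seeing the data.

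The rule for named genes took all tested genes of the set and those with a high mean, and, in the protein list, called genes and the 2 most abundant per subgroup. RNU7-1, the untested U1 and U6 genes, genes ending in P, the short genes called lower, SNRNP40, SMN1 and SMN2 were named after their values were seen. The genes, lists and rules were chosen with earlier results of these data known. Alternatives were q-value thresholds, pseudocounts, low-value filters, scaling and genes ending in P. Procedures were tested on simulated data. Python 3.11.15, numpy 2.4.6, pandas 2.3.3, Biopython and matplotlib were used.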

Additional observations from a re-analysis of the deposited data

How the results depend on the processing

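The 3 higher calls of the set and of U5, and the count of 0 lower calls, stayed within 1.5 times of these values at q-value thresholds of 0.01 and 0.1, with low-value and fold filters, with the adjustment recomputed and with genes ending in P included. At 0.01 RNU5F-1 (0.85 on the log2 scale) lost its call, leaving RNU5A-1 and RNU5B-1. In the protein list, higher calls went to 0 at 0.01 and to 3 at 0.1, and lower calls to 0 at 0.01; at an unadjusted p under 0.05, 11 (10.4%) were higher and 4 (3.77%) lower, against 4.51% and 6.41% of all tested genes. The median difference of the set was 0.34 with a pseudocount of 10 and 0.40 with genes ending in P. With those genes, the class log2 ratios were 0.32 for U1, 0.43 for U7 and 0.54 for U4atac, so U7 changed direction. Without its most abundant gene, U1 had 1.42 and U5 0.44. Scaling by the median ratio of tested genes (1.001) moved no class by over 0.1. Scaling by summed FPKM without MIR3687 and MIR3648 divided siRNA values by a factor of -0.08 on the log2 scale. This raised every class ratio, none by over 0.1. The U4 log2 ratio went from -0.05 to 0.03 and so changed direction. U2 and U6 had no class ratio. No paired analysis was possible because only pooled values were listed, which also meant that no replicate could be left out. Limits set by depth were not measured.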

Other observations

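Small nuclear RNA genes named as pseudogenes were counted after the values of the set were seen. There were 1842 on the same chromosomes, of which 1087 were listed at 0 in both conditions and 342 were tested. Of these 1 (0.292%) was called higher, RNU5E-4P, and 0 lower by the authors' Cuffdiff test, against 0.572% and 0.782% of all tested genes. At an unadjusted p under 0.05, 4 (1.17%) were higher and 1 (0.292%) lower, against 4.51% and 6.41% of all tested genes. The median of the tested ones was 0.40 on the log2(FPKM + 1) scale. RNU5E-6P was at 7594.5 FPKM in siRNA and 5674 FPKM in OE with too little data for a test. RNU1-67P, the U1 entry with the highest listed value, was at 2915 FPKM in siRNA and 2484 FPKM in OE (q = 0.811, the authors' deposited table). The 1308 U6 entries summed to 13342 FPKM in siRNA and 13131 FPKM in OE.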
